A study of Mus musculus with 4 samples.

Results

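Doxorubicin was compared with no treatment in primary cultured mouse astrocytes labelled OASIS deficient. The members are 2 libraries of the 4 in the series, chosen by their genotype and treatment labels: the library labelled OASIS deficient with doxorubicin and the library labelled OASIS deficient without treatment. Both came from cultures kept in medium with 10% serum, with RNA taken after confluence. The treated culture received 1 µg/ml doxorubicin at day 5 after confluence for 1 h and was kept for 24 h in fresh medium. The other 2 libraries, labelled OASIS wild type with and without doxorubicin, are used only beside these. The labels name no strain, age, sex, litter or targeting construct. Each group holds 1 library, so no difference has a replicate check, no p-value is given, and intervals on ratios cover counting error only. "Higher" and "lower" below describe the library labelled doxorubicin against the library labelled untreated.

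Creb3l1 encodes OASIS, which is anchored in the endoplasmic reticulum membrane; proteolysis frees its N-terminal part, a transcription factor, to enter the nucleus. Doxorubicin traps topoisomerase II on DNA and leaves double-strand breaks. Breaks activate the kinase ATM and the transcription factor p53, whose targets, led by the p21 gene Cdkn1a, stop the cell cycle, and cells with lasting damage can become senescent and secrete cytokines, chemokines and matrix proteases. Astrocytes also enter a reactive state, marked by Gfap and acute-phase genes such as Serpina3n and Lcn2, to which signals from microglia contribute. Cultures made from whole brain usually keep some microglia, the resident macrophages.

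The libraries held 17481188 counts (untreated) and 20171539 counts (doxorubicin), and a count of 0 allows up to 0.174 and 0.152 CPM (counts scaled to library size). Creb3l1 (ENSMUSG00000027230.9, GRCm38 chromosome 2, 91982328 to 92024502) was not absent. It had 260 counts untreated and 235 with doxorubicin, against 966 and 636 in the wild-type libraries, and these counts cover the whole gene. The cultures of the pair also differed in sex chromosome genes. Xist, the RNA of the inactive X chromosome, had 0 counts untreated and 2742 with doxorubicin, while 4 Y-linked genes (Uty, Kdm5d, Ddx3y and Eif2s3y) counted 366 to 868 untreated and 0 with doxorubicin. The wild-type pair was divided in the same way. The treatment label and the sex of the culture therefore cannot be told apart, and only autosomal genes were compared. The level of p53 targets followed the genotype label rather than the treatment label: 38 targets of arrest and repair summed to 2676 and 2864 CPM in the deficient libraries, and to 8990 and 9840 CPM in the wild-type libraries.

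Most genes lay close together in the 2 deficient libraries. Of 14618 autosomal genes with a mean of at least 1 CPM over the pair, 86.8% lay within 1.5-fold, and the median log2 ratio was 0.03 (1 CPM added to each level, which understates the ratio of low genes). At least 2-fold higher were 229 genes (1.57%), and at least 2-fold lower were 279 (1.91%). At least 1.5-fold higher were 949 genes (6.49%), and at least 1.5-fold lower were 976 (6.68%). The wild-type pair held more, with 4.43% of 15104 genes 2-fold higher, 5.63% 2-fold lower, 11.2% 1.5-fold higher and 13.8% 1.5-fold lower. Genes of low level carried most of the large ratios. Between 1 and 5 CPM, 11.2% of 3103 genes passed 2-fold, while between 20 and 100 CPM 0.347% of 5760 did. Of 2032 genes at 100 CPM or more, 2 passed, Serpina3n and Saa3, both lower. Protein-coding genes of at least 20 CPM had a median of 0.01 among the shortest 1909 and of 0.06 among the longest 1909, and of 0.12 and -0.10 in the wild-type pair.

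**Figure D1:**
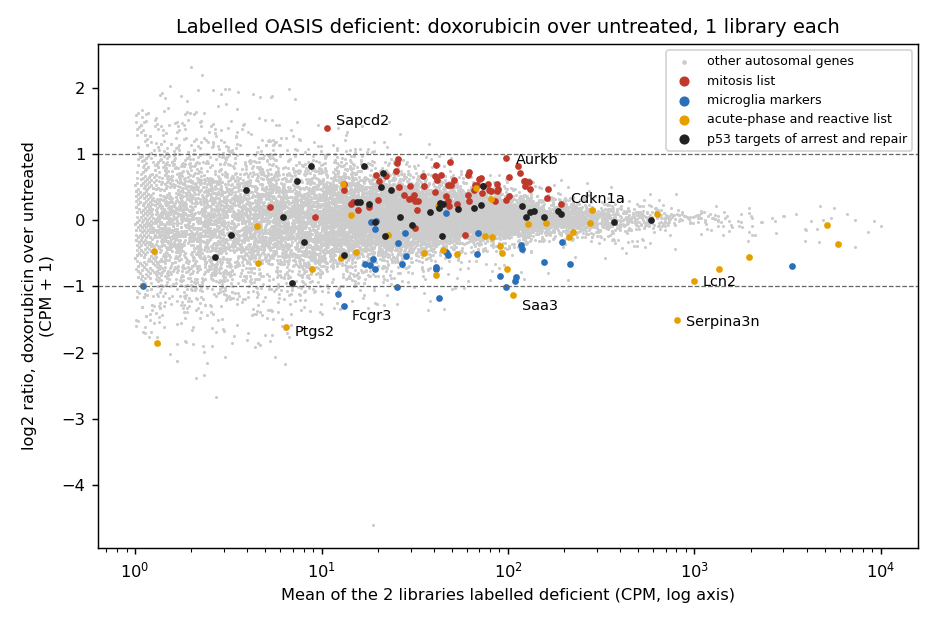
Log2 ratio of doxorubicin over untreated (y axis, 1 CPM added) against the mean level of the 2 libraries labelled deficient (x axis, CPM, log axis) for 14618 autosomal genes, with dashed lines at 2-fold. Ratios narrow as the level increases; mitosis genes (red) lie mostly above 0, microglia markers (blue) mostly below, and Serpina3n stands at -1.51 with a mean level near that of Lcn2.

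Genes of cell division were higher together, by modest amounts. Of 74 autosomal mitosis genes, 72 had a log2 ratio above 0, and the median was 0.49, against 0.03 for all genes. At least 1.5-fold higher were 25 of 74 and 1.5-fold lower 0 of 74, where 6.49% and 6.68% of all genes passed. The 74 genes summed to 3644 CPM untreated and 5155 CPM with doxorubicin. The list was higher under every alternative scaling or filter tried, with medians of 0.46 to 0.55. Its lowest members were Pttg1, the securin that holds separase inactive, at -0.22, and Dlgap5, a spindle protein, at -0.12.

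Among the kinases, Aurkb (ENSMUSG00000020897.12, chromosome 11, 69045647 to 69051664), the enzymatic subunit of the chromosomal passenger complex, had 1139 counts untreated and 2526 with doxorubicin. Its ratio was 1.93 (95% exact binomial interval 1.80 to 2.07). Nek2, which separates centrosomes, went from 500 to 1047 counts (ratio 1.82, 1.64 to 2.03), and Aurka, the spindle pole kinase, had a log2 ratio of 0.74. The motor Kif18a, which restrains chromosome movement at the metaphase plate, had 298 and 668 counts (ratio 1.95, 1.70 to 2.24). Cep55, a midbody protein of abscission, had 303 and 651 counts, and the scaffold Iqgap3 had 590 and 1260. Sapcd2, a regulator of spindle orientation, had 94 and 315 counts and was the only mitosis gene past 2-fold, at 1.39. Each of these intervals lies above 1. In the wild-type libraries Aurkb was at 0 counts in both, and the 74 genes summed to 763 and 850 CPM.

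The promoters of these genes share letters that the choice of members did not use. Genes expressed late in the cell cycle often carry a cell cycle homology region (CHR) next to CCAAT boxes. RefSeq promoter windows of GRCm38.p6 run from 250 bases before to 50 bases after a start, and 64 of the 76 listed mitosis genes matched 72 windows by symbol. Either strand was searched, and overlapping matches were allowed. The CHR letters TTTGAA were in 46 of 72 mitosis windows, or 63.9%, against 17.9% of all 32851 windows. CCAAT was in 48 of 72, or 66.7%, against 37.4%. Both were in 35 of 72, or 48.6%, against 6.95% of all and 4 of 52 windows of DNA replication genes. Within the mitosis genes, the 41 autosomal members with TTTGAA had a median log2 ratio of 0.52 and the 21 without it one of 0.39. The 31 members with both motifs had a median of 0.48 and the 31 without both one of 0.51. A match is a description of the letters and not a binding site. Capitals mark TTTGAA and CCAAT on either strand in the windows below. Other mitosis genes with both motifs may have higher ratios than those shown. The windows belong to 3 autosomal mitosis genes that hold both motifs. They are Cenpf, a kinetochore protein (chr1:189688037-189688336, minus strand, log2 ratio 0.82), Aurka (chr2:172370521-172370820, minus strand, 0.74) and Cdc20, the activator of the anaphase-promoting complex (chr4:118437294-118437593, minus strand, 0.72).
Cenpf: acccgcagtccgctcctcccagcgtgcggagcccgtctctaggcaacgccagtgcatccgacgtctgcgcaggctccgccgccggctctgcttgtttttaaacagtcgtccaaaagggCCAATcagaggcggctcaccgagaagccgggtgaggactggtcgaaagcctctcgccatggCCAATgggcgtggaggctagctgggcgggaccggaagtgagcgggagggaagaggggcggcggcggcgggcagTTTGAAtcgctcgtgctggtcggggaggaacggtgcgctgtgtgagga
Aurka: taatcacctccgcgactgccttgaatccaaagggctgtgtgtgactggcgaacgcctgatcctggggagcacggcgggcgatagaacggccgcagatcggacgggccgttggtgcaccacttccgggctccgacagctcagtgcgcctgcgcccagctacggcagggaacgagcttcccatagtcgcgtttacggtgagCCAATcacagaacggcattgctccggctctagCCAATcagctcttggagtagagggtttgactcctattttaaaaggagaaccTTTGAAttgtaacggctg
Cdc20: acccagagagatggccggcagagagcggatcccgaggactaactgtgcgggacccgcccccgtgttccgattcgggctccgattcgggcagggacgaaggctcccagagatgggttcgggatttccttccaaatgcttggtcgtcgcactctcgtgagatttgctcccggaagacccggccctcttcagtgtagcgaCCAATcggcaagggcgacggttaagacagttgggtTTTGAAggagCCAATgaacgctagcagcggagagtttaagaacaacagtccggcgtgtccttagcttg
In each of these windows 1 CHR and 2 CCAAT matches were found.

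Cyclins and their kinases followed the mitosis genes, with a median of 0.41 over 23 genes, 21 of them above 0. At least 1.5-fold higher were 4 (17.4%, where 6.49% of all genes were), and 0 were lower (where 6.68% were). Ccnb1, the cyclin of mitotic entry, had 1758 counts untreated and 3129 with doxorubicin (ratio 1.55, 1.46 to 1.64). Ccna2, the cyclin of S phase and G2, had 1877 and 3217 counts. Ccnf stood at 0.74, Ccne2 at 0.70 and Cdk2 at 0.66. The G1 cyclin Ccnd2, the most abundant of the list, was at 0.14. The 15 genes of a mixed group of CDK inhibitors, pocket proteins and their partners had a median of 0.14, with 12 above 0. Of the 15, 2 were at least 1.5-fold higher (13.3%, where 6.49% of all genes were) and 0 lower. Among the inhibitors, Cdkn2b stood at -0.28 and Cdkn2c at 0.38. Lin9, a subunit of the complex that drives late cell cycle genes, had 137 and 306 counts. Of 15 E2F, FOXM1 and MYB family genes the median was 0.17. At least 1.5-fold higher were 2 (13.3%, where 6.49% of all genes were), and 1 was lower (6.67%, where 6.68% were). The lower one was E2f2, an activator of low level, with 91 and 35 counts (-1.18). E2f3, an activator, went from 161 to 411 counts (ratio 2.22, 1.85 to 2.68), and the repressors E2f7 and E2f8 stood at 0.66 and 0.53.

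DNA replication genes were higher by less, with a median of 0.28 over 52 genes, 43 of them above 0. At least 1.5-fold higher were 6 (11.5%, where 6.49% of all genes were), and 2 were lower (3.85%, where 6.68% were). Cdc45, a subunit of the replicative helicase, had 344 counts untreated and 742 with doxorubicin (ratio 1.88, 1.65 to 2.14). Pold1, the catalytic subunit of polymerase delta, stood at 0.69 and Mcm7 of the helicase ring at 0.62. The accessory subunit Pole2 was lower at -0.62. E2F sites drive many of these genes, and the letters TTTCCCGC or TTTGGCGC on either strand were in 15 of 52 replication windows, or 28.8%, against 1.56% of all windows and 6 of 72 mitosis windows. The 14 autosomal replication genes with such letters had a median of 0.33 and the 28 without them one of 0.23. The pair with the highest ratios among them is shown, with the E2F letters in capitals: Pold1 (chr7:44548766-44549065, minus strand) and Mcm7 (chr5:138171834-138172133, minus strand).
Pold1: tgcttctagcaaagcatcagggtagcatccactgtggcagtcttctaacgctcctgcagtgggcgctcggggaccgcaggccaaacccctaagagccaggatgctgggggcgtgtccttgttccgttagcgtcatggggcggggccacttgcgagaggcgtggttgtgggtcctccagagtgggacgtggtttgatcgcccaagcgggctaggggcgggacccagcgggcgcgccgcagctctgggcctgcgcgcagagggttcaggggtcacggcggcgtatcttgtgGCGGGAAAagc
Mcm7: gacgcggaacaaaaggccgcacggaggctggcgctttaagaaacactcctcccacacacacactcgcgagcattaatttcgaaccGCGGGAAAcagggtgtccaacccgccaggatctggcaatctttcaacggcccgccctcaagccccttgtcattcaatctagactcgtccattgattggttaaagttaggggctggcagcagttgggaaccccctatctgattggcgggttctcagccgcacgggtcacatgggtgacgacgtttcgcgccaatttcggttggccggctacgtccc

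Sensors of DNA damage and repair genes differed by group. Of 28 damage sensors and checkpoint genes, 23 lay above 0 (median 0.21), with 2 at least 1.5-fold higher (7.14%, where 6.49% of all genes were) and 0 lower. Atm, the kinase activated by double-strand breaks, had 92 counts untreated and 193 with doxorubicin (ratio 1.83, 1.42 to 2.37), and Mre11a, a nuclease subunit at broken ends, had 391 and 685. Homologous recombination and Fanconi anaemia genes had a median of 0.10 over 37, with 6 at least 1.5-fold higher (16.2%, where 6.49% of all genes were) and 2 lower (5.41%, where 6.68% were). These 37 genes summed to only 442 CPM untreated. Low genes passed more often: 476 of 3103 genes between 1 and 5 CPM and 334 of 3723 between 5 and 20 CPM were 1.5-fold higher. Fancd2, which acts at stalled forks and crosslinks, had 87 and 234 counts (ratio 2.34, 1.82 to 3.03), and Fanci, its partner, had 138 and 308. The nuclease Exo1 stood at 0.80. Brca1 and Brca2 were at -0.12 and -0.06. Excision, mismatch and end-joining genes had a median of 0.02 over 41, and the glycosylase Neil3 alone passed 2-fold among them, with 151 and 386 counts. Top2a, the topoisomerase that doxorubicin poisons, had 2365 and 3774 counts (ratio 1.39, 1.32 to 1.46), while Top2b stood at 0.18. Tdp1, which removes topoisomerase I from DNA ends, had 385 and 798 counts. Abcb1b, a drug efflux pump, had 133 and 242 counts, and Abcc1, another efflux pump, had 1097 and 902.

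Targets of p53 differed little in size. Cdkn1a (ENSMUSG00000023067.14, chromosome 17, 29090976 to 29100727) had 3204 counts untreated and 3926 with doxorubicin, a ratio of 1.07 (1.02 to 1.12). Mdm2, the ligase that degrades p53, had 1454 and 1572 counts (ratio 0.941, 0.876 to 1.01), and Trp53 itself had 1575 and 1743 (0.963, 0.899 to 1.03). The 15 regulators of p53 had a median of -0.02, which lay between -0.04 and 0.03 under the alternatives. In either direction 0 of 15 passed 1.5-fold, where 6.49% of all genes were higher and 6.68% lower. The 38 targets of arrest and repair had a median of 0.14, and 28 of 38 lay above 0, as did 54.0% of all genes. At least 1.5-fold higher were 4 (10.5%, where 6.49% of all genes were), 1 was lower (2.63%, where 6.68% were) and 0 passed 2-fold. The 4 were Pidd1 and Polk (0.82 each), Psrc1 (0.71) and Plk3 (0.60). Polk is a translesion polymerase, Plk3 a stress kinase and Psrc1 a spindle protein. Tigar, a regulator of glucose use, was lower with 162 and 87 counts. The growth factor gene Gdf15 was at -0.33 and Phlda3 at 0.06. The 21 apoptosis targets had a median of -0.06. The death receptor Tnfrsf10b was the only one past 1.5-fold, at -0.63 (4.76% lower, where 6.68% of all genes were).

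**Figure D2:**
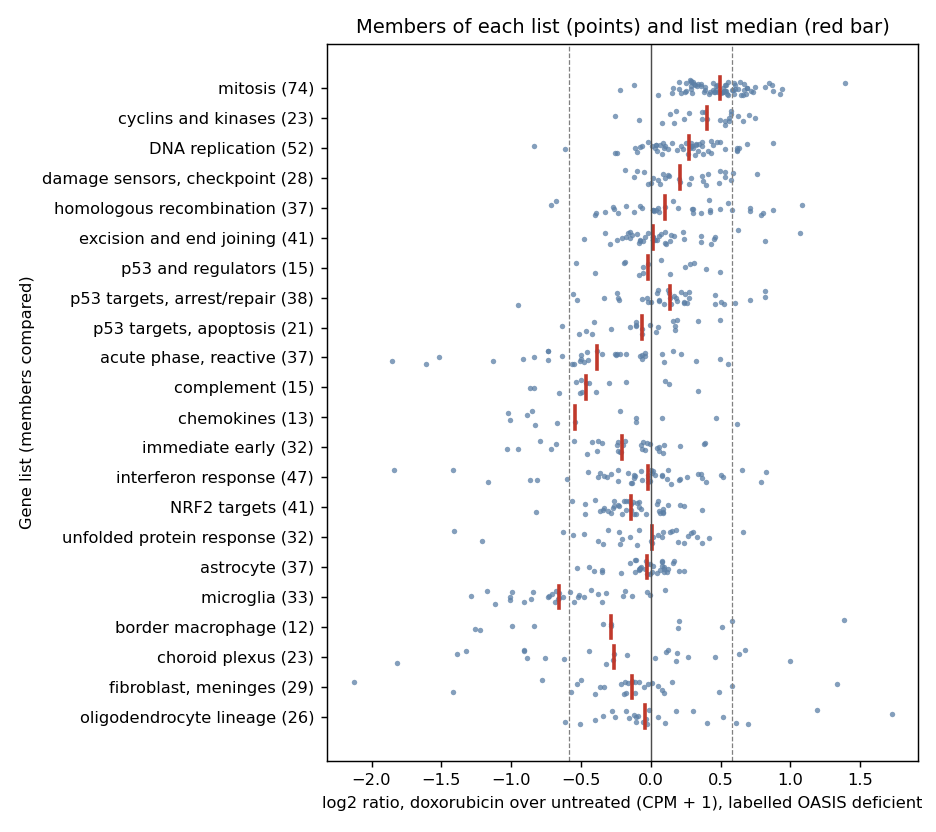
Log2 ratio (x axis, 1 CPM added) of each member (points) of 22 gene lists and each list's median (red bar), for doxorubicin over untreated in the libraries labelled deficient, with dashed lines at 1.5-fold and the number of members compared in brackets. The medians run from 0.49 for mitosis to -0.66 for microglia markers, with p53 lists and astrocyte markers near 0.

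Markers of microglia were lower almost throughout. Of 33 autosomal markers compared, 32 had a log2 ratio below 0, the median was -0.66, 18 were at least 1.5-fold lower (54.5%, where 6.68% of all genes were) and 5 at least 2-fold lower. The 35 autosomal markers summed to 6395 CPM untreated and 4065 CPM with doxorubicin, most of it from Lyz2, and 1 marker was at 0 in both. In bulk RNA, fewer cells of a type and less RNA per cell cannot be told apart. Aif1, the calcium-binding protein used to stain microglia, had 592 counts untreated and 328 with doxorubicin, which was lower by a factor of 2.07 (1.81 to 2.38). Fcgr3, an antibody receptor, had 331 and 144 counts (factor 2.64, 2.17 to 3.23). Cd52, a surface glycoprotein of leukocytes, had 1022 and 510 counts (factor 2.30, 2.07 to 2.57). Fcer1g, the signalling chain of these receptors, had 2237 and 1266. The lysozyme gene Lyz2, the most abundant, had 70692 and 50419 counts (factor 1.61, 1.59 to 1.63). The complement genes C1qa, C1qb and C1qc stood at -0.86, -0.66 and -0.63, and the chemokine receptor Cx3cr1 had 1377 and 1100 counts. The list did not move as a block, since Csf1r, the growth factor receptor microglia need, was at -0.19, Tmem119 had 321 and 362 counts (-0.03) and Sall1 stood at 0.10. P2ry12, a homeostatic receptor, had 31 and 8 counts. The 12 border macrophage markers compared had a median of -0.28. At least 1.5-fold lower were 4 (33.3%, where 6.68% of all genes were), and 1 was higher (8.33%, where 6.49% were). Ms4a7, a macrophage membrane protein, had 627 and 289 counts, and the scavenger receptor Stab1 had 927 and 445. In the wild-type pair the microglia markers had a median of -0.45 and summed to 7254 and 5223 CPM.

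At 20 CPM or more, 16 gene identifiers were at least 2-fold lower and 6 higher, and 1 of each belongs to Nnt, which has 2 identifiers. At 1.5-fold, 131 were higher and 103 lower between 20 and 100 CPM, and 8 higher and 13 lower at 100 CPM or more. In the microglia or border macrophage lists were 5 of the 16, against 0 of the 6. They were Ms4a7, Stab1, Cd52, Fcer1g and Aif1. Of all 14618 genes compared, 33 were in the microglia list and 12 in the border macrophage list. The share at 20 CPM or more was not computed, and the lists were chosen with earlier results of these data known. Others of the 16, which were looked up after their values were seen, are leukocyte genes that no list held: Plek, the pleckstrin gene, at -1.28, and the inhibitory receptor genes Lilr4b and Lilrb4a at -1.13 and -1.03. Lilr4b and Lilrb4a are near-identical copies, so their split is uncertain. Siglec1, the macrophage sialic acid receptor, had 167 counts untreated and 50 with doxorubicin. Acod1, which makes itaconate in activated macrophages, had 167 and 31 (factor 6.19, 4.20 to 9.40), and Pik3r5, a kinase subunit of leukocytes, had 175 and 51.

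Acute-phase and reactive genes were mostly lower. Of 37 genes compared, 30 were below 0, and the median was -0.38. At least 1.5-fold lower were 10 (27.0%, where 6.68% of all genes were), and 4 of them were 2-fold lower (where 1.91% of all genes were). At least 1.5-fold higher were 0 (where 6.49% of all genes were). Serpina3n (ENSMUSG00000021091.8, chromosome 12, 104406729 to 104414329), a secreted inhibitor of serine proteases, had 20660 counts untreated and 8305 with doxorubicin, lower by a factor of 2.86 (2.79 to 2.93). It belongs to a family of close copies, among which counts can be shared. Lcn2, the iron-siderophore carrier, had 22253 and 13532 counts (factor 1.89, 1.85 to 1.93), and Saa3, an acute-phase apolipoprotein, had 2531 and 1315 (factor 2.21, 2.07 to 2.37). Chil1, a chitinase-like secreted protein, had 29205 and 20096 counts. Ptgs2, the inducible cyclooxygenase, had 176 and 53 counts (factor 3.82, 2.79 to 5.29). Nos2, the inducible nitric oxide synthase and the lowest member, had a mean of 1.31 CPM, with 45 and 0 counts. The metalloreductase Steap4 had 916 and 582 counts, and Cd14, the endotoxin co-receptor of myeloid cells, stood at -0.74. Filaments differed less: Gfap had 113415 and 102215 counts (-0.35) and Vim was at -0.06. The transcription factor gene Stat3 was at -0.04 and the protease inhibitor A2m at 0.09. The microglia markers moved in the same direction, with the sums given above, and their part in these differences was not tested. No gene is in both lists.

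STAT3 is a known driver of acute-phase genes, and the STAT letters TTCNNNGAA were in 7 of 43 windows of this list, or 16.3%, against 8.30% of all. Of 27 autosomal members compared that had a window, 6 held these letters, among them Steap4, Sphk1, Socs3, Psmb8 and Gfap, which were lower, and Emp1, which stood at 0.33. Their median was -0.50, and that of the 21 others was -0.25. The window of Steap4 (chr5:7960222-7960521, plus strand), the lowest of the 6, is shown with the STAT letters in capitals.
Steap4: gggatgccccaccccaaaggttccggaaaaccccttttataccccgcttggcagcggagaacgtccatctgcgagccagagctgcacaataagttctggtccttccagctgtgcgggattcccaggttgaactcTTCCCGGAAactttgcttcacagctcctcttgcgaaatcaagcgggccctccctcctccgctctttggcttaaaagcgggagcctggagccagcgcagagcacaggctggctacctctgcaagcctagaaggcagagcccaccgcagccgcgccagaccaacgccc

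**Figure D3:**
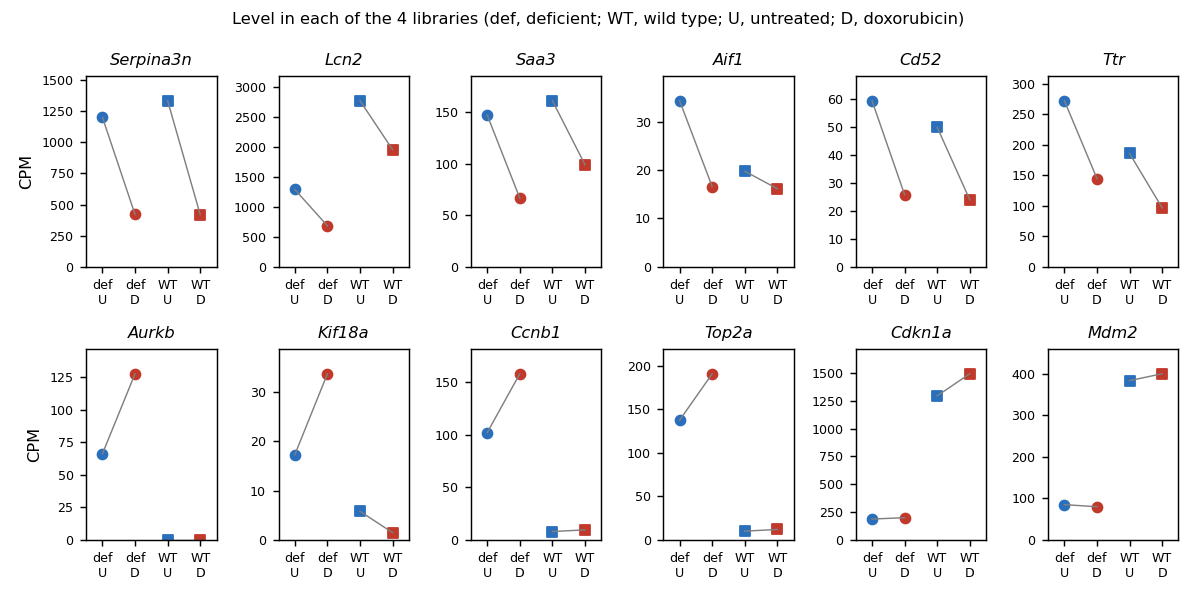
Level in CPM (y axis from 0, own scale for each gene) of 12 genes in each of the 4 libraries, circles for deficient and squares for wild type, blue for untreated and red for doxorubicin, 1 library each. Serpina3n, Lcn2, Saa3, Aif1, Cd52 and Ttr are lower with doxorubicin in both pairs, the 4 cell division genes are low in wild type, and Cdkn1a and Mdm2 differ by genotype label.

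Other inflammatory groups divided. Complement genes had a median of -0.46 over 15, with 3 at least 1.5-fold lower (20%, where 6.68% of all genes were) and 0 higher. C3, the central component, had 8594 counts untreated and 7028 with doxorubicin, and the protease C1s1 had 551 and 338, with a close copy in the genome. Chemokines had a median of -0.55 over 13, with 6 at least 1.5-fold lower (46.2%, where 6.68% of all genes were) and 1 higher (7.69%, where 6.49% were). Ccl4 and Ccl3, attractants made mostly by myeloid cells, had 292 and 155 counts and 308 and 182 counts. Ccl9 stood at -1.01, Ccl2 at -0.85, Cxcl12 at -0.83 and Ccl5 at -0.67, while Cx3cl1, made by neurons and astrocytes, was at 0.47 and Ccl25 at 0.62. The chemokine median was -0.23 when genes below 1 CPM were kept. The microglia markers moved with both groups, and this was not tested either. Cytokines and growth factors had a median of -0.05 over 40, with 3 at least 1.5-fold lower (7.5%, where 6.68% of all genes were) and 1 higher (2.5%, where 6.49% were). Matrix metalloproteinases with their inhibitors had a median of -0.02 over 28. Insulin-like growth factors and their binding proteins had a median of -0.01 over 15, with 8 below 0. Of these 15, 0 were at least 1.5-fold higher and 1 was lower (6.67%, where 6.68% of all genes were). The lower one was the growth factor gene Igf1, with 1784 and 1202 counts (-0.76). The binding protein genes Igfbp4 and Igfbp7 stood at -0.52 and -0.40, while Igfbp5 had 11861 and 17983 counts (ratio 1.32, 1.29 to 1.35). Immediate early genes had a median of -0.21 over 32, with 5 at least 1.5-fold lower (15.6%, where 6.68% of all genes were) and 0 higher. The stress factor Atf3, among the lower, had 822 and 567 counts. Interferon response genes were spread about a median of -0.02 over 47, with 6 at least 1.5-fold lower (12.8%, where 6.68% of all genes were) and 3 higher (6.38%, where 6.49% were). At least 2-fold lower were Epsti1, Zbp1 and Oas1c, with 60 and 5, 38 and 4, and 84 and 32 counts, and 0 were 2-fold higher. Rtp4 and Parp9 stood at 0.83 and 0.79 and Ifit1 at -0.60. Genes of class I antigen presentation had a median of -0.16 over 22, and NF-kB subunits and inhibitors one of 0.07.

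Markers of the labelled cell type were present at like levels in both libraries. Of 37 astrocyte markers compared, 0 passed 1.5-fold in either direction, where 6.49% of all genes were higher and 6.68% lower. Abundant genes passed less often: of 2032 genes at 100 CPM or more, 8 were 1.5-fold higher and 13 lower. The median of the markers was -0.03, with 16 above 0 and 21 below. The largest differences were lower, with Cldn10 at -0.53, Fgfr3 at -0.44 and Gfap at -0.35, while Slc4a4 stood at 0.24. Slc1a3, a glutamate transporter, had 25258 counts untreated and 30447 with doxorubicin (1467 and 1539 CPM). The water channel Aqp4 had 20142 and 24754 (1170 and 1252 CPM), and Aldh1l1, a folate enzyme, had 6160 and 6915 (358 and 350 CPM). The astrocyte list summed to 19805 and 18424 CPM, and 1 marker was at 0 in both libraries. Endothelial markers were mixed in level. Cldn5 had 0 counts in both libraries and Pecam1 0 and 1, and 7 of 24 markers were at 0 in each library. Others were present, such as Slc16a1 with 7778 and 9075 counts and Mfsd2a with 3353 and 4289. The list summed to 747 and 788 CPM, and the cells that gave these counts were not determined. Among neuronal genes, Rbfox3 had 17 and 7 counts, and the list median was -0.07. Oligodendrocyte lineage markers were present, with a median of -0.04 and Pdgfra at 350 and 354 counts. Markers of fibroblasts and meninges had a median of -0.14, pericytes and smooth muscle 0.06, endothelium 0.13, neural progenitors 0.14 and ependyma 0.03. Choroid plexus genes were mixed, with a median of -0.26 over 23, but their larger differences were mostly lower. At least 1.5-fold lower were 8 of 23 (34.8%, where 6.68% of all genes were), and 3 of 23 were higher (where 6.49% were). Ttr, the thyroid hormone carrier of that epithelium, had 4687 and 2861 counts (factor 1.88, 1.80 to 1.97), and Enpp2 had 1806 and 1099, while Igfbp2, the most abundant of the list, was at 0.18.

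Housekeeping groups were nearly level. Cytosolic ribosomal proteins had a median of -0.03 over 74, proteasome subunits 0.03 over 32, nuclear genes of oxidative phosphorylation 0.01 over 73 and cholesterol synthesis genes 0.00 over 40. Genes of the unfolded protein response had a median of 0.01 over 32 and coat proteins of secretory vesicles 0.01 over 48. The OASIS family with its reported targets had a median of 0.09 over 15. Of these 15, Chst11 alone was at least 1.5-fold higher (6.67%, where 6.49% of all genes were). Glutathione and iron genes controlled by NRF2 leaned lower by little, with a median of -0.14 over 41 and 30 below 0. The cystine transporter Slc7a11 had 519 and 329 counts, and the ferritin gene Fth1 had 142116 and 124038 (factor 1.32, 1.31 to 1.33). Lysosome genes had a median of -0.15 over 52, with 42 below 0 and 2 at least 1.5-fold lower (3.85%, where 6.68% of all genes were). In that list, 3 genes are also microglia markers. Collagens had a median of 0.10 over 27, with Col4a2 at -0.81. Other matrix genes had a median of -0.02 over 59, but their larger differences were mostly lower. At least 1.5-fold lower were 11 (18.6%, where 6.68% of all genes were), 4 of them 2-fold, and 2 were higher (3.39%, where 6.49% were). Notch1 had 1973 and 3243 counts (ratio 1.43, 1.35 to 1.51), and the Notch list had a median of 0.08 over 29.

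The highest single ratios belonged to genes with few counts. By the naming rule, the 20 highest of at least 5 CPM began with Pcdh18, a protocadherin, with 36 counts untreated and 222 with doxorubicin (ratio 5.37, 3.76 to 7.86). Synj2, a phosphoinositide phosphatase, had 30 and 180 counts, Mtfr2, a regulator of mitochondrial fission, had 30 and 178, and Rab11fip1, an adaptor of recycling endosomes, had 45 and 234. Further down were Sarm1, the NAD-cleaving enzyme of axon loss, with 108 and 358 counts, Alms1, a centrosomal protein, with 145 and 482, and Arhgap22, a Rac inhibitor, with 255 and 751 (ratio 2.56, 2.22 to 2.97). At the other end, Tns2, a focal adhesion protein, had 190 and 33 counts (factor 6.62, 4.55 to 9.89). Krt18, an epithelial keratin, had 151 and 35, Pde2a, a cyclic nucleotide phosphodiesterase, 187 and 49, and Penk, the enkephalin precursor, 185 and 58. Hpgd, which degrades prostaglandins, had 925 and 401 counts (factor 2.65, 2.35 to 2.99). Of 54 named genes at the extremes or in fixed positions, 18 share exon sequence with another gene, mostly on the other strand (Synj2 with Serac1, Wdr62 with Thap8, Tub with Ric3), and these unstranded libraries cannot divide such reads. The symbol Nnt belongs to 2 overlapping gene identifiers that went in opposite directions, from 199 to 678 and from 727 to 407 counts, and neither is read as a change.

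The genes past 2-fold were set beside the wild-type pair. Of 72 genes at least 2-fold lower with at least 5 CPM in both pairs, 51 were below 0 in the wild-type pair, 13 of them 2-fold lower, and 3 were 2-fold higher (median -0.33). Of 43 genes at least 2-fold higher, 23 were above 0, 1 of them 2-fold higher, and 6 were 2-fold lower (median 0.07). Over all 15104 genes of at least 1 CPM in the wild-type pair, 5.63% were 2-fold lower and 4.43% 2-fold higher (median -0.005). The shares over all genes of at least 5 CPM in both pairs were not computed. In both pairs the treatment label goes with the sex of the culture, so a shared direction does not separate the 2, and the differences between pairs were not tested. Serpina3n stood at -1.51 in the deficient pair and -1.67 in the wild-type pair, Hpgd at -1.36 and -1.54, Ttr at -0.91 and -0.94, Lcn2 at -0.92 and -0.50 and Aif1 at -1.01 and -0.28. The mitosis genes had medians of 0.49 over 74 genes and 0.18 over the 64 compared in the wild-type pair, where counts were few. In the wild-type pair 23 of 64 were at least 1.5-fold higher, where 11.2% of all genes were, and 12 of 64 lower, where 13.8% were. Acute-phase genes had medians of -0.38 and -0.11, damage sensors 0.21 and -0.20, and collagens 0.10 and -0.50.

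**Figure D4:**
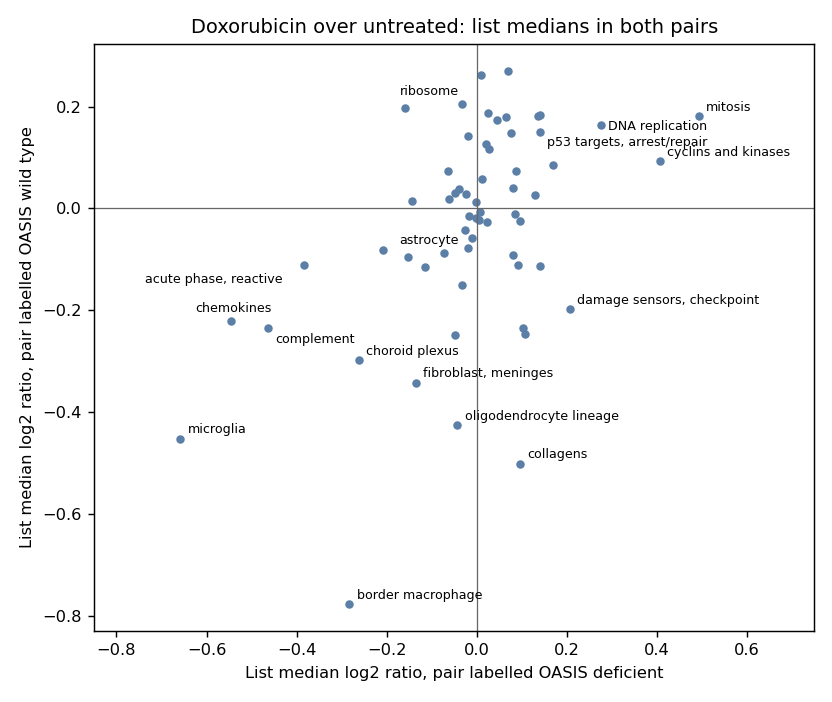
Median log2 ratio of doxorubicin over untreated for each gene list with at least 5 members compared, in the pair labelled deficient (x axis) and the pair labelled wild type (y axis), 1 library per group and each point a list. Microglia markers (-0.66 and -0.45) are low in both, mitosis stands at 0.49 and 0.18, and collagens stand at 0.10 and -0.50.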

How the data were processed

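RNA from 4 libraries, 1 per combination of genotype and treatment label, was made into libraries with a SMART-Seq v4 kit, per the labels' protocols, which does not mark strand. The authors deposited an expected count and a TPM value per gene and library, per the file headers; the tool DRAGEN and the build GRCm38 come from the labels (per the submitters' processing notes), while version and read filters are not stated in them. The deposited expected counts, not whole in 5810 to 6451 genes, were rounded. The deposited TPM values, scaled by length and library total, served as an alternative. Symbols and positions came from GENCODE M21 on GRCm38 (55227 of 55487 identifiers matched); promoter windows came from RefSeq (GRCm38.p6).

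Counts were scaled to CPM with TMM factors (edgeR 4.0.16, R 4.3.3) from all 4 libraries, which were 0.985 and 0.981 in the deficient pair. Log2 ratios used 1 CPM added to each level, over autosomal genes with a pair mean of at least 1 CPM. Genes were called by size, at 2-fold and 1.5-fold, with no test, since each group holds 1 library. Ratio intervals are exact conditional binomial 95% intervals; a count of 0 allows 3 counts; reads carry no molecular identifiers, so both cover counting error only. The members and the 62 gene lists were chosen with earlier results of these data known. Named genes were the 20 highest and 20 lowest of at least 5 CPM, up to 6 per list, the 10 most different of at least 500 CPM, and Creb3l1, Trp53, Cdkn1a, Mdm2 and Top2a; list members given for contrast or with a promoter, and genes said to be looked up, fall outside this rule. Alternatives were DESeq2 (1.42.0) size factors, total counts, TMM from the pair, pseudocounts of 0.5 and 5 CPM, other minimums, TPM and keeping X and Y.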

Additional observations from a re-analysis of the deposited data

Results flagged for a closer look

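Of the named genes whose symbol belongs to 1 identifier, 6 differed by at least 2-fold in opposite directions in the deficient and wild-type pairs, and the difference was not tested. Synj2 stood at 1.88 in the deficient pair and -1.81 in the wild-type pair. Tub stood at 1.44 and -1.58, Naaladl2 at 1.44 and -1.44, Wdr62 at 1.30 and -2.84, and Jag1, a Notch ligand, at 1.06 and -1.59. Penk went the other way, at -1.58 and 1.60. Synj2, Tub, Naaladl2, Wdr62 and Penk share exon sequence with another gene on the other strand. Overlap was looked for among the extreme genes only, so that of Jag1 is unknown. Each of the 6 had under 500 counts in every library. Both identifiers of Nnt, which overlap and are uncertain, also differed in this way. One stood at 1.49 in the deficient and -1.04 in the wild-type pair, and the other had 727 and 407 counts in the deficient and 573 and 1378 in the wild-type pair.

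Signal outside the autosomal comparison divided the pair. In the library labelled deficient with doxorubicin, Xist had 2742 counts and its antisense partner Tsix 550, against 0 and 12 in the untreated one, and without strand the 2 cannot be told apart. In the untreated library the Y-linked Ddx3y had 742 counts, Eif2s3y 868, Kdm5d 420 and Uty 366, against 0 for each with doxorubicin.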

How the results depend on the processing

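No paired analysis was possible because each group holds 1 library. The counts by size depended on the pseudocount and the minimum level. With 5 CPM added, 12 genes were 2-fold higher and 23 lower, 279 were 1.5-fold higher and 292 lower, and the share of higher genes among the 2-fold calls went from 45.1% to 34.3%. With 0.5 CPM added, 356 were 2-fold higher and 407 lower, so that 46.7% were higher. With a minimum mean of 5 CPM, 66 were 2-fold higher and 93 lower, and 473 were 1.5-fold higher and 429 lower. With no minimum, 1472 were 1.5-fold higher and 1514 lower. The other settings (DESeq2 size factors, total counts, TMM from the pair, a mean over 4 libraries, TPM, X and Y kept) left these 4 counts within 1.5 times. All 229 and 279 of the 2-fold calls kept an interval beyond 1.5-fold, a criterion added after the data were seen. The calls were made with 1 CPM added, which already demands a larger count ratio of low genes. This criterion could therefore hardly remove a call, and nothing is drawn from it. Of the list medians under alternatives, 598 differed from the reported ones by less than the median counting error of their members and 2 by more: the border macrophage median was -0.84 with a minimum of 5 CPM and the chemokine median -0.23 with none. For 15 lists near 0, the interferon, matrix, cytokine, oligodendrocyte lineage, ependyma and p53 regulator lists among them, the sign of the median depended on the setting, with sizes of at most 0.073. Of the named genes under alternatives, 3676 values stayed and 113 moved, 68 of them with TPM. With 1 library per group, nothing here separates the treatment from the sex of the culture, the litter or the preparation.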
